A study of Mus musculus with 14 samples.

Results

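The mitosis genes described here are 10 genes whose products carry a cell through chromosome condensation, spindle assembly and division: Mki67, Top2a, Ccnb1, Ccnb2, Ccna2, Cdk1, Cdc20, Bub1, Aurka and Birc5. Every probe set that the platform annotation names for one of them was taken. This gave 14 of the 22690 probe sets on the array, for 9 of the 12393 genes it names. The annotation used pairs no probe set with Ccnb1, a mitotic cyclin, which was not analysed here. Of the 691 probe sets it gives several symbols, 0 name a member. Each gene is represented by its brightest probe set, judged by the mean of the 14 arrays. A filter removed the dimmest 40% of genes, and 8 of the 9 genes were among the 7436 that remained to be tested. The ninth, Bub1, had a mean signal of 390.2 against a threshold of 637.1, and its values come from a fit with no such filter.

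RNA of epididymal fat, a white fat depot lying against the epididymis, was measured on single-channel Affymetrix mouse arrays. The 14 mice, of the ICR strain, were 3 weeks old, and the labels give all as male. The UC mice (n = 5) had dams on 50% of control food while pregnant and then on food without limit while nursing. The UU mice (n = 4) had dams kept on 50% of control food in both periods. The CC mice (n = 5) had dams with unlimited chow throughout. The labels do not state which mice were littermates, so each array is treated as an independent animal, and if mice shared a litter the p-values are too small.

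Mitosis is driven by the kinase Cdk1 bound to cyclins of the A and B types. Aurora kinases and their partners build the spindle and attach it to the chromosomes, and a checkpoint holds division until every chromosome is attached. The anaphase-promoting complex then destroys the cyclins and lets the chromosomes part. Transcripts of these genes accumulate late in the cell cycle and are low in resting cells, so they are widely used as a proliferation signature. Mature fat cells do not divide, while fat cell precursors, immune cells and vessel cells of a young depot can.

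Many genes of this kind are switched on late in the cycle through promoters that combine CCAAT boxes, bound by the factor NF-Y, with an element known as the cell cycle genes homology region, whose letters are TTTGAA or TTTAAA. RefSeq promoter windows of the GRCm38.p6 build, from 250 bases before to 50 bases after the gene start, were found for 9 of the 10 genes. Ccna2 had none in the table used. The 4 windows shown span the range among the members, from the richest in these letters to the one with fewest. Capitals mark every match to these 3 sets of letters, on either strand. A CCAAT box on the other strand reads ATTGG, and TTTGAA on the other strand reads TTCAAA.
Top2a, chr11:99024140-99024439, minus strand: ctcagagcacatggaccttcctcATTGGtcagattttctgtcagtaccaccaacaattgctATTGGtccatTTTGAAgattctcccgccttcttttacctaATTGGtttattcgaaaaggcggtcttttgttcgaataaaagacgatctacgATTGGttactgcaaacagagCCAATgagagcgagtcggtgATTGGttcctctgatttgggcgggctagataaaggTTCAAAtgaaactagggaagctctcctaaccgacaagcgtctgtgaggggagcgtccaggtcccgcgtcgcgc
Cdk1, chr10:69352863-69353162, minus strand: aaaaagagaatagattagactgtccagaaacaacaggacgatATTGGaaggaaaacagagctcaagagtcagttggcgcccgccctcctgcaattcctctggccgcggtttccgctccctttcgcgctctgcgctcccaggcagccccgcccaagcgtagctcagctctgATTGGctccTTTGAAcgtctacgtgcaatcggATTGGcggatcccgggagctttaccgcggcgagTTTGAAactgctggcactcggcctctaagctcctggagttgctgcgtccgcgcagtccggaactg
Ccnb2, chr9:70421505-70421804, minus strand: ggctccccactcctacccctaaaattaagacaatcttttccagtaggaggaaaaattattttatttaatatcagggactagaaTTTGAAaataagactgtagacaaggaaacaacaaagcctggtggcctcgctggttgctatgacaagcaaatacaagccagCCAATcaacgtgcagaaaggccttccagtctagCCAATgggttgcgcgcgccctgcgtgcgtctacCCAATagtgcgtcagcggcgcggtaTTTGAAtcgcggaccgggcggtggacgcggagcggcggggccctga
Birc5, chr11:117848987-117849286, plus strand: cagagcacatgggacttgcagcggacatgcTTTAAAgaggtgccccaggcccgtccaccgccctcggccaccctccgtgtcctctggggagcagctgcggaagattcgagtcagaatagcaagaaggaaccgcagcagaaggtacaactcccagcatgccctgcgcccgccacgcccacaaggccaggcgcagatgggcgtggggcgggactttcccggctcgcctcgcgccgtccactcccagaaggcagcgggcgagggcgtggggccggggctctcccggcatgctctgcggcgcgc

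The Top2a window holds 6 CCAAT and 2 TTTGAA. The Cdk1 window holds 3 CCAAT, all on the other strand, and 2 TTTGAA. In Cdk1 one TTTGAA starts 15 bases before the gene start, and in Ccnb2 one starts at base 5 of the transcript. The Birc5 window holds 0 CCAAT and 1 TTTAAA. Of the 9 windows, 8 (88.9%) held at least 2 CCAAT, against 12.2% of 27025 mouse promoter windows of the same length, 15.2% of the 6038 windows of tested genes and 20 of the 50 windows of a wider list of mitosis genes. TTTGAA stood in 6 of 9 (66.7%), against 18.1% of all windows and 64.0% of the wider list. At least 2 CCAAT together with TTTGAA or TTTAAA stood in 7 of 9 (77.8%), against 3.25% of all windows and 34.0% of the wider list. No matches overlapped. A match of letters describes the window only.

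The arrays were scaled by the authors to one mean signal, so overall brightness is equal by construction, and the number of arrays limits the precision. The fat cell marker Adipoq had signals from 25262.8 to 88737.2, so every sample carried fat. Samples also differed in other tissues. Gpx5, an epididymal epithelial gene, was at 409.6 to 1155.1 in 4 mice (UC replicates 2 and 5, CC replicates 2 and 4) and at 5710.8 to 69623.9 in the others. Xist, expressed in female cells, was at 9136.8 in UC replicate 5 and 14479.3 in CC replicate 2 and at most 80.1 elsewhere, although all mice are labelled male. Alb, a liver transcript, was at 25660.3 in UC replicate 2. The log2 ratio of 3′ over 5′ signal in the Actb and Gapdh probe sets, a measure that is higher in degraded RNA, averaged 1.22 in UC, 1.15 in UU and 0.71 in CC. It ran from 0.9 to 1.63 in UC and from 0.4 to 1.08 in CC. In UU it was 2.1 in replicate 3 and 0.75 to 0.94 in the others.

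No mitosis gene passed the test in any of the 3 comparisons, and the arrays of every pair of groups overlapped for all 9 genes. The differences were small, between -0.10 and 0.49 on the log2 scale for the 8 tested genes. By the brightest probe set, CC had the lowest mean signal of the 3 groups for all 9 genes. On the linear scale UC had the highest mean for Cdk1, Ccna2, Ccnb2, Birc5, Cdc20 and Mki67. UU had the highest for Aurka, Top2a and Bub1. The second Cdc20 probe set instead had its highest mean in UU (1406), with UC (1075) just below CC (1082). Dim probe sets of Top2a and Cdc20 also did not place CC lowest. For Cdk1 the fitted log2 difference of UC from UU had the other sign (-0.07). No pair of neighbours in these orders differed beyond the spread among mice. In whole tissue, more dividing cells and more transcript per dividing cell cannot be told apart.

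**Figure D1:**
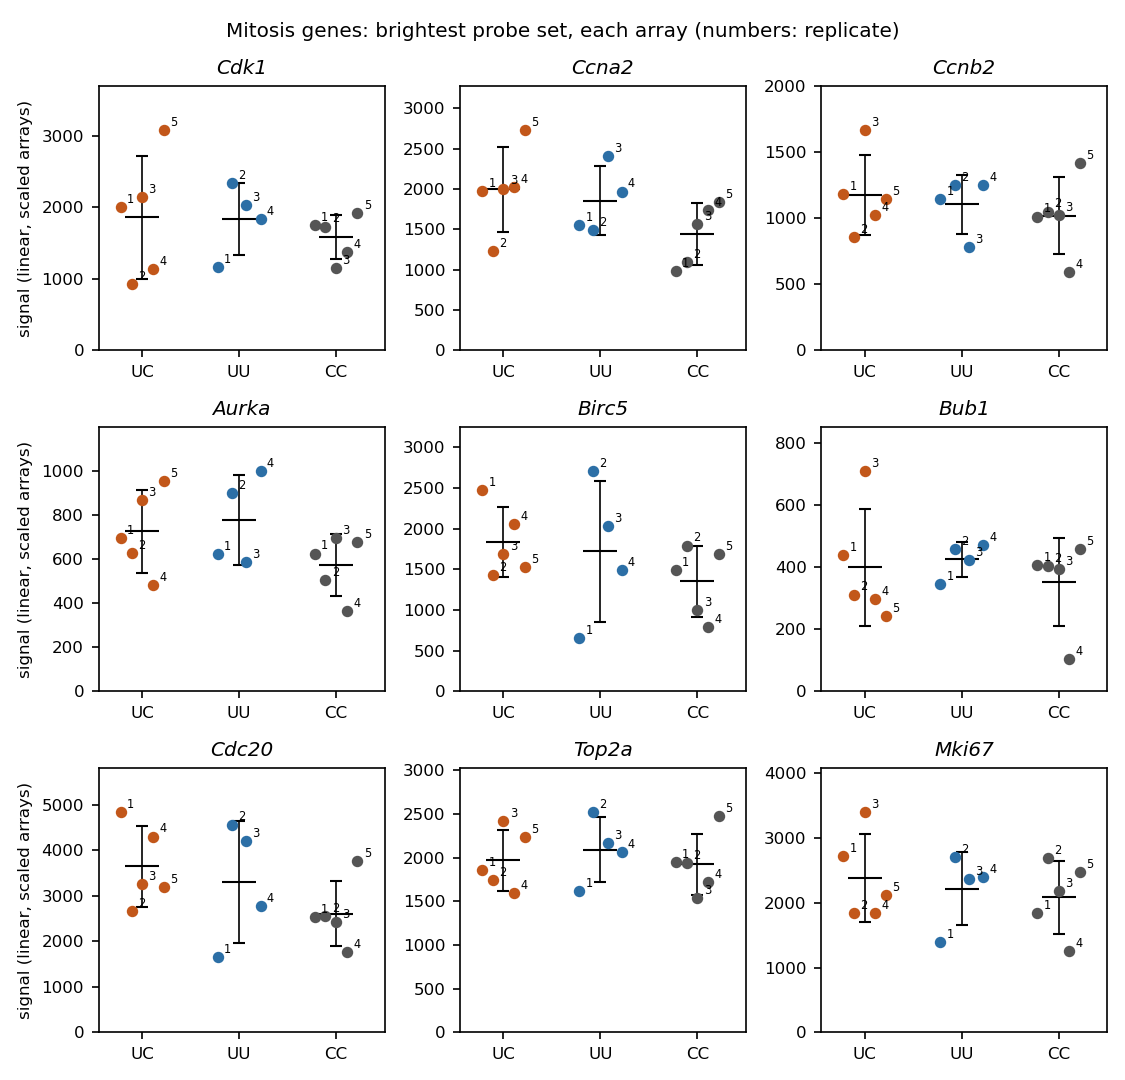
Signal of the brightest probe set of each of the 9 mitosis genes on every array, on the linear scale of the scaled arrays, with UC (n = 5), UU (n = 4) and CC (n = 5) side by side. Each point is 1 mouse marked with its replicate number, and the bar and whiskers are the group mean and SD; in every panel the 3 groups overlap.

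Cdk1 encodes the kinase that starts mitosis. Its signals, in order of replicate number, were 2007, 928.3, 2146, 1135 and 3077.5 in UC, 1159, 2332, 2026 and 1829 in UU and 1751, 1730.5, 1153, 1376 and 1917 in CC. The UC mice spanned the whole range, with both the highest (UC replicate 5) and the lowest (UC replicate 2) of the 14 arrays. The log2 difference was 0.12 ± 0.29 (SE) for UC against CC (limma, adjusted p = 0.927), 0.19 ± 0.30 for UU against CC (adjusted p = 0.775) and -0.07 ± 0.30 for UC against UU (adjusted p = 0.927). Of the spread of Cdk1 over all 14 arrays, 2.83% lay between the groups, the smallest share among the 8 members and below the all-gene median of 21.5%. The UC difference from CC was 0.33 without UC replicate 2, -0.09 without UC replicate 5, 0.01 without CC replicate 3 and -0.05 without the 2 samples with Xist signal.

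Ccna2 encodes cyclin A2, which works in DNA synthesis and early mitosis. Its signals were 1977, 1235, 2005, 2024 and 2731 in UC, 1549, 1493, 2412 and 1969 in UU and 984.8, 1093, 1568.5, 1739 and 1840.5 in CC. In UC 4 of 5 mice lay above the highest CC mouse, and UC replicate 2 lay inside the CC range. The UC difference from CC was 0.46 ± 0.22 on the log2 scale, a 1.37-fold higher fitted level with a 95% interval of 0.985 to 1.91 (limma, adjusted p = 0.583). The UU difference from CC was 0.37 ± 0.24 (adjusted p = 0.432), with 2 of 4 UU mice above the highest CC mouse. Without the 2 samples with Xist signal the UC difference was 0.25 ± 0.23. The second Ccna2 probe set gave 0.34 ± 0.23 in UC relative to CC and 0.13 ± 0.24 in UU relative to CC. Both Ccna2 probe sets correlated with r = 0.54 over the 14 arrays.

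Ccnb2 encodes cyclin B2, a partner of Cdk1 in mitosis. Its signals were 1182, 861.0, 1669, 1023 and 1148.5 in UC, 1145.5, 1254, 780.8 and 1253 in UU and 1014, 1051, 1028, 591.3 and 1421 in CC. UC replicate 3 was the highest array and CC replicate 4 the lowest. The differences were 0.22 ± 0.23 for UC against CC (limma, adjusted p = 0.80), 0.14 ± 0.24 for UU against CC (adjusted p = 0.786) and 0.07 ± 0.24 for UC against UU (adjusted p = 0.894). Without CC replicate 4 the UC difference from CC was 0.04 and the UU difference from CC was -0.04.

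Aurka encodes Aurora A, the kinase that matures the spindle poles. Its signals were 695.4, 626.3, 867.7, 480.6 and 952.6 in UC, 621.2, 898.5, 585.3 and 997.5 in UU and 623.8, 504.9, 695.7, 362.2 and 674.2 in CC. In UC 2 of 5 mice, and in UU 2 of 4 mice, lay above the highest CC mouse, and CC replicate 4 was again the lowest array. The UU difference from CC, 0.42 ± 0.26, was the largest of the 8 tested members in that comparison (limma, adjusted p = 0.424). The UC difference from CC was 0.32 ± 0.25 (adjusted p = 0.723). Without the 4 samples low in Gpx5, UC differed from CC by 0.00 and UU differed from CC by 0.18.

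Birc5 encodes survivin, a subunit of the complex that corrects faulty attachments between chromosomes and spindle. Its signals were 2477, 1425, 1685, 2053.5 and 1524 in UC, 653.6, 2708, 2031 and 1495 in UU and 1491.5, 1792, 1004, 793.1 and 1686 in CC. The UU mice held both ends of the range, 653.6 in UU replicate 1 and 2708 in UU replicate 2, a 4.14-fold span that was the widest of the 8 tested members. The differences were 0.46 ± 0.32 for UC against CC (limma, adjusted p = 0.684), 0.24 ± 0.34 for UU against CC (adjusted p = 0.747) and 0.23 ± 0.34 for UC against UU (adjusted p = 0.751). Leaving out UU replicate 1 gave 0.63 for UU against CC, and leaving out UU replicate 2 gave -0.04.

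Bub1 encodes a kinase of the spindle checkpoint. Its brighter probe set lay below the signal threshold, with 439.1, 311.6, 709.0, 297.2 and 241.1 in UC, 345.8, 459.3, 423.9 and 470.2 in UU and 406.5, 402.8, 394.7, 103.4 and 457.9 in CC. CC replicate 4, at 103.4, stood apart from the other CC mice, which lay between 394.7 and 457.9. In the fit with no filter the differences were 0.20 ± 0.36 for UC against CC, 0.37 ± 0.39 for UU against CC and -0.17 ± 0.39 for UC against UU (limma, adjusted p from 0.687 to 0.928). The second Bub1 probe set, at 109.3 to 305.2, gave 0.16, 0.31 and -0.15.

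Cdc20 encodes the activator of the anaphase-promoting complex. Its brightest probe set had signals of 4844, 2663, 3261, 4307 and 3198.5 in UC, 1664, 4569, 4203 and 2771 in UU and 2527, 2563, 2432, 1766 and 3760.1 in CC. All 5 UC mice lay above the CC median, 2 of them above the highest CC mouse. The UC difference from CC was 0.49 ± 0.27, the largest of the 8 tested members, a 1.40-fold level with a 95% interval of 0.948 to 2.08 (limma, adjusted p = 0.62). UU differed from CC by 0.27 ± 0.28 (adjusted p = 0.634). The second Cdc20 probe set had signals of 1138, 828.5, 1447, 734.1 and 1225 in UC, 1479, 1359, 1179.8 and 1605 in UU and 1453, 714.4, 961.3, 681.7 and 1598 in CC. It gave 0.03 ± 0.25 for UC against CC, 0.44 ± 0.27 for UU against CC and -0.41 ± 0.27 for UC against UU (limma over all probe sets, adjusted p = 0.985, 0.497 and 0.536). The 2 probe sets thus placed UC and UU in opposite orders, and they correlated with r = 0.17 (rho = 0.07) over the 14 arrays. A further Cdc20 probe set stayed between 18.7 and 95.8.

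**Figure D2:**
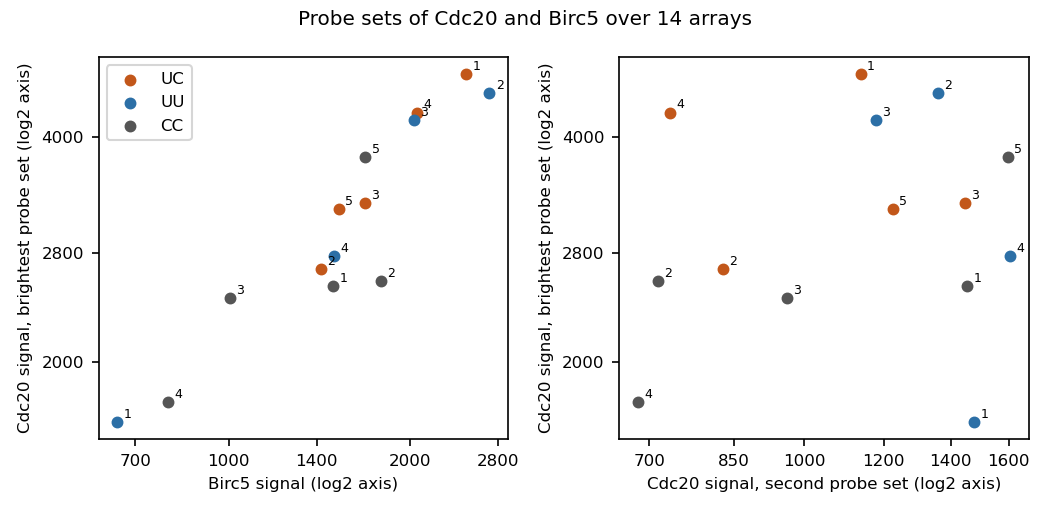
Left, signal of the brightest Cdc20 probe set against Birc5, and right, against the second Cdc20 probe set, 1 point per mouse, on log2 axes, with UC, UU and CC coloured. The brightest Cdc20 probe set followed Birc5 (r = 0.93 over 14 arrays) more closely than it followed the other probe set of its own gene (r = 0.17).

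Top2a encodes topoisomerase II alpha, which untangles chromosomes before they part. Its signals were 1856, 1738, 2417, 1591 and 2231 in UC, 1615, 2520.3, 2168 and 2063 in UU and 1952, 1941, 1537, 1720.0 and 2470.3 in CC. Top2a was the steadiest member, with a 1.64-fold span over the 14 arrays. All 5 UC mice and 3 of the 4 UU mice lay inside the CC range. The differences were 0.03 ± 0.17 for UC against CC, 0.12 ± 0.18 for UU against CC and -0.09 ± 0.18 for UC against UU (limma, adjusted p = 0.976, 0.756 and 0.823). The 95% interval for UC against CC ran from 0.801-fold to 1.3-fold. The second Top2a probe set was dim, at 10.9 to 62.6.

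Mki67 encodes the Ki-67 protein that coats mitotic chromosomes and is the usual histological stain for dividing cells. Its signals were 2720.5, 1845, 3399, 1837.5 and 2115 in UC, 1399, 2704.5, 2367 and 2394 in UU and 1837, 2686, 2183, 1256.5 and 2467 in CC. UC replicate 3 was highest and CC replicate 4 lowest. The differences were 0.19 ± 0.24 for UC against CC (limma, adjusted p = 0.832), 0.09 ± 0.25 for UU against CC (adjusted p = 0.87) and 0.10 ± 0.25 for UC against UU (adjusted p = 0.856). Without CC replicate 4 the difference from CC was 0.03 in UC and -0.08 in UU.

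UC against CC asks whether fat of mice restricted only before birth differs at weaning from that of controls. Of the 8 tested members 0 passed a limma adjusted p under 0.05, where 0.0% of all 7436 genes did. At an unadjusted p under 0.05 the count was 0 of 8, against 8.8% of all genes, and 0 of 8 had groups that did not overlap, against 1.76%. All 8 had a fitted difference above 0, where 49.3% of all genes did, and their median was 0.27 against 0.00 for all genes. The 8 genes share their samples and vary together, so this is 1 pattern and not 8 separate ones. Cdc20 was read from its brightest probe set, at 0.49, where its second probe set gave 0.03. Of the 95% intervals, 2 of 8 reached a 2-fold higher level (Birc5 to 2.21-fold, Cdc20 to 2.08-fold), and 0 reached a 2-fold lower one. The median was 0.13 without CC replicate 4, 0.20 without the 4 samples low in Gpx5, 0.24 without the 2 with Xist signal, 0.25 without the 3 of highest 3′ to 5′ ratio and 0.30 with the 3′ to 5′ ratio as a covariate.

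UU against CC asks the same of mice restricted also during suckling, against the same 5 CC mice. Again 0 of 8 members passed, where 0.0% of all genes did, and 0 of 8 had an unadjusted p under 0.05, against 16.3% of all genes. None of the 8 had groups that did not overlap, against 8.31% of all genes. The fitted differences were 0.09 to 0.42, with 8 of 8 above 0 where 55.3% of all genes were, and a median of 0.21 against 0.05. The highest upper bound of a 95% interval was 1.97-fold, for Aurka. Because both comparisons use the same CC mice, their directions are not independent of each other. The median was 0.07 without UU replicate 2, 0.42 without UU replicate 1 and 0.11 without CC replicate 4. It was 0.13 without the 4 samples low in Gpx5, 0.12 without the 3 of highest 3′ to 5′ ratio and 0.23 with the 3′ to 5′ ratio as a covariate.

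UC against UU asks what differs between restriction ended at birth and restriction through suckling. In this comparison 0.847% of all genes passed (54 higher and 9 lower in UC, or 102 and 2 with each array centred on its median), and 0 of 8 mitosis genes did. The unadjusted counts were 0 of 8 against 18.0% of all genes, and for groups that do not overlap 0 of 8 against 6.15%. The fitted differences were -0.10 to 0.23, with 5 above and 3 below 0, where 43.3% of all genes were above, and a median of 0.08 against -0.06 for all genes. The 95% intervals stayed between 0.61-fold and 1.94-fold. With each array centred on its median, which moves the all-gene median by 0.137, the members' median was 0.22 against 0.08 for all genes, and 8 of 8 members lay above 0 where 60.3% of all genes did.

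**Figure D3:**
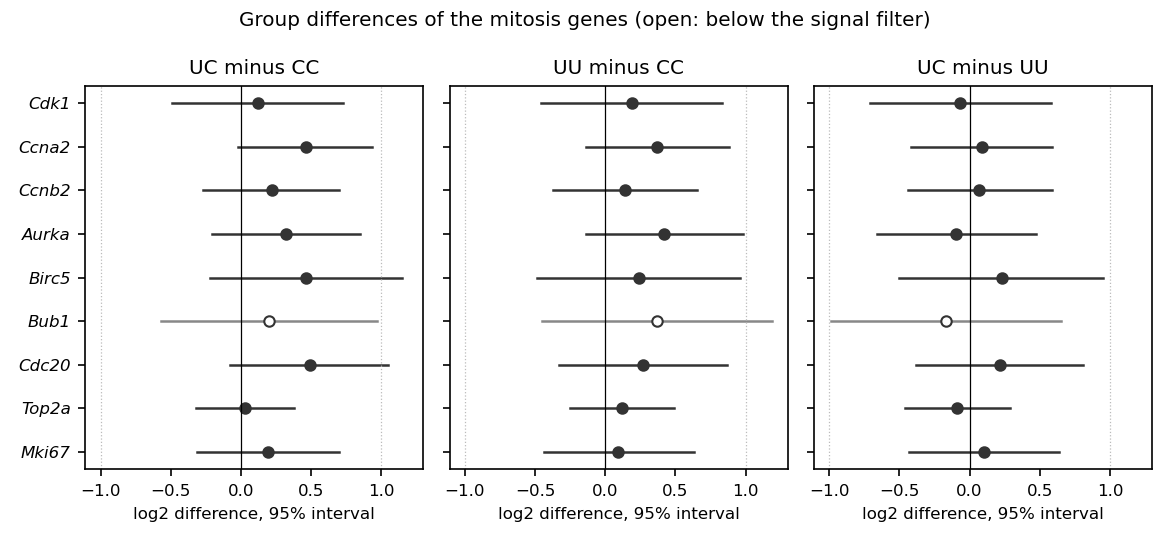
Fitted log2 differences of the 9 mitosis genes for UC minus CC, UU minus CC and UC minus UU, with 95% intervals, and dotted lines at 2-fold lower and higher. Every interval includes 0; Bub1, drawn open, lies below the signal filter.

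The members varied among mice more than among groups, and largely together. Each tested member was centred and scaled over the 14 arrays, and the mean of the 8 was taken per mouse. UC replicate 3 (0.93) and UU replicate 2 (0.91) stood highest, and UU replicate 1 (-1.0) and CC replicate 4 (-1.36) lowest. UU replicate 2 was among the top 3 arrays for 7 of the 8 genes, and CC replicate 4 among the bottom 3 for 5. Within UC the mean ran from -0.72 to 0.93, within UU from -1.0 to 0.91 and within CC from -1.36 to 0.58. As a mean log2 signal the 8 genes were at 10.78 ± 0.28 (SD, n = 5) in UC, 10.72 ± 0.35 (n = 4) in UU and 10.49 ± 0.28 (n = 5) in CC. Of the spread of single members, between 2.83% (Cdk1) and 26.6% (Ccna2) lay between groups. The median over all genes tested was 21.5%, so a larger spread among mice than among groups is not particular to the members.

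**Figure D4:**
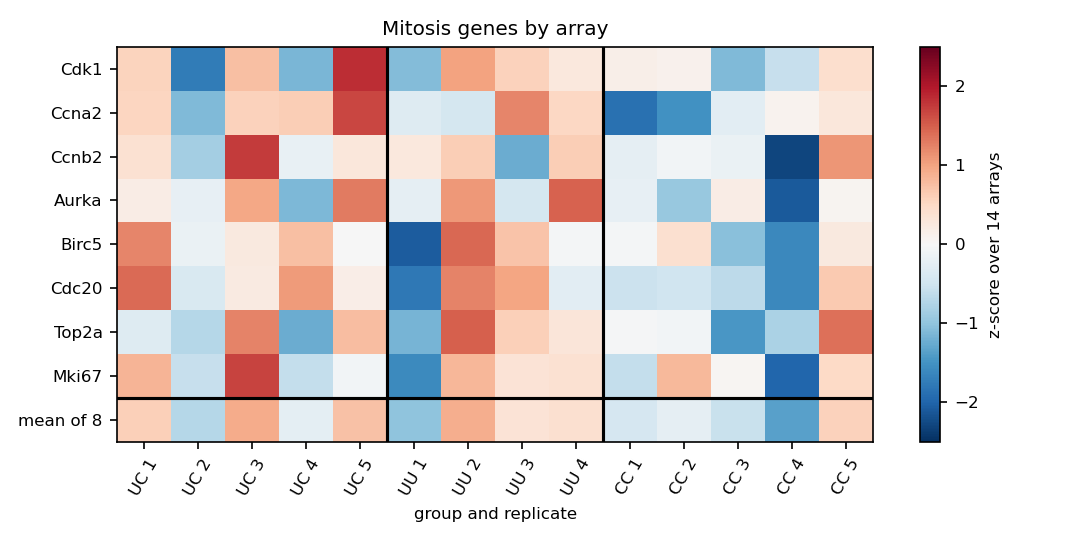
z-scores of the 8 tested mitosis genes over the 14 arrays, with groups separated by vertical lines and the mean of the 8 genes in the bottom row. Red is above and blue below the gene's mean; columns such as UU replicate 2 are red and CC replicate 4 blue across most genes, within groups as well as between them.

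All 28 pairs of tested members had a positive correlation over the 14 arrays, with a median r of 0.50. The arrays carry the same animals, tissue make-up and scaling, so this describes these samples. The closest pair was Birc5 and the brightest Cdc20 probe set (r = 0.93, rho = 0.92). Top2a and Cdk1 followed (r = 0.82). The loosest was Ccna2 with Ccnb2 (r = 0.13). The second Cdc20 probe set correlated with Aurka at r = 0.74.

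The 8 tested genes outside the members whose pattern was most like the members' mean were Mad2l1 (r = 0.88 over 14 arrays), P4ha2 (0.85), Tpx2 (0.85), Cdca5 (0.84), Pclaf (0.84), Kif22 (0.84), Tcf19 (0.83) and Cep55 (0.81). Mad2l1 is a spindle checkpoint protein, Tpx2 activates Aurora A, Cdca5 holds sister chromatids together, Pclaf binds the replication clamp, Kif22 is a chromosome motor and Cep55 acts in the last cut between daughter cells. P4ha2 is a collagen prolyl hydroxylase. Mad2l1, Tpx2, Kif22 and Cep55 are on the wider mitosis list, and P4ha2, Cdca5, Pclaf and Tcf19 are on none of the lists used. Over the wider mitosis list 35 of 36 tested genes correlated positively with the members' mean, with a median r of 0.60, against 0.43 for 20 DNA replication genes and 0.02 for all genes.

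Markers of cell types were set beside the members' mean, and their part in the results was not tested. None of the tested markers had an r above 0.5 with that mean, and the lowest r was -0.66, for an adipocyte marker. The 10 tested adipocyte markers correlated with the members' mean at a median r of -0.35 and the 9 endothelial markers at -0.37, while 14 general epithelial markers did so at 0.23 and 8 epididymal markers at 0.31. The 10 tested fat cell precursor and stromal markers did so at -0.05, the 3 germ cell markers at 0.26 and the 3 skeletal muscle markers at 0.26. The 6 liver markers did so at 0.05. The lymphocyte and erythroid lists had 1 tested gene each, at -0.26 and -0.37. The summed signal of all listed general epithelial markers was 11285 to 70733 in UC, 78586 to 98553 in UU and 9780 to 81846 in CC. The 12 macrophage markers summed to 48930 to 136931 in UC, 18662 to 35863 in UU and 43896 to 116715 in CC, with a median r of -0.12 for the 10 tested. The adipocyte markers summed to 233286 to 423275 in UC, 146904 to 254318 in UU and 219906 to 387715 in CC. The epididymal markers summed to 2951 to 143656 in UC, 54979 to 155394 in UU and 1610 to 174770 in CC. These are sums of linear signals, so the brightest genes weigh most. The adipocyte marker Fabp4 alone ran from 76828.6 to 185120.5. In UU relative to CC, 0 of 10 adipocyte markers lay above 0 (median log2 difference -1.04), as did 1 of 9 endothelial (-0.39), 1 of 10 macrophage (-1.08), 7 of 8 epididymal (1.55) and 14 of 14 general epithelial markers (0.93). In UC relative to CC the counts above 0, in the same order, were 6, 4, 4, 2 and 0. Their medians were 0.06, -0.05, -0.16, -0.53 and -0.34. In UC relative to UU the counts were 10, 8, 9, 0 and 0, with medians of 0.91, 0.27, 1.01, -1.78 and -1.42.

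The other cell cycle genes were read from lists beside the members. Of the 64 genes of the wider mitosis list 36 were tested, and 0 passed in any comparison (limma, adjusted p under 0.05). In UC against CC 33 of 36 lay above 0, with a median of 0.23, and 3 of 36 had an unadjusted p under 0.05, against 8.8% of all genes. In UU against CC 31 lay above 0, with a median of 0.28, and 7 higher and 1 lower of 36 had an unadjusted p under 0.05, against 16.3% of all genes. In UC against UU 14 lay above 0, with a median of -0.06, and 1 had an unadjusted p under 0.05, against 18.0%. These medians stand beside 0.00, 0.05 and -0.06 for all genes. With each array centred on its median, 24 of 36 lay above 0 in UC against UU, with a median of 0.08, the same as that of all genes.

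Among the genes of smallest p in that list, Cenpk, a kinetochore subunit, had a signal of 1028 ± 269 (SD, n = 5) in UC, 1224 ± 243 (n = 4) in UU and 710 ± 168 (n = 5) in CC. It differed from CC by 0.51 ± 0.21 in UC (limma, adjusted p = 0.542) and by 0.77 ± 0.22 in UU (adjusted p = 0.146). All 4 UU mice lay above the highest CC mouse, and 8.31% of all genes had UU and CC groups that did not overlap. Incenp, the scaffold of the complex that holds survivin, was at 1636 ± 272 in UC and 1212 ± 129 in CC. It differed by 0.41 ± 0.19 (adjusted p = 0.562), and its UC and CC groups did not overlap, as in 1.76% of all genes. The dimmer Incenp probe sets gave -0.96 and 0.50. Ncaph, a condensin subunit, differed from CC by 0.35 ± 0.16 in UC and by 0.49 ± 0.17 in UU. A dimmer Ncaph probe set gave -0.03 and -0.15. Mad2l1, the spindle checkpoint protein, differed by 0.34 ± 0.18 in UC relative to CC (adjusted p = 0.611). Pbk, a mitotic kinase, was at 1514 ± 332 in UC, 2256 ± 442 in UU and 1357 ± 304 in CC, a difference of 0.72 ± 0.20 for UU against CC (adjusted p = 0.146) and -0.58 ± 0.20 for UC against UU (adjusted p = 0.173). Anln, an actin binder of the cleavage furrow, lay the other way in UU against CC (-0.42 ± 0.16, adjusted p = 0.22). In UC against UU, Cenpf, a kinetochore protein, differed by -0.34 ± 0.20 and Hmgb2, a chromatin protein, by -0.53 ± 0.34. The dimmer Cenpf probe set gave 0.28 there.

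DNA replication genes act in the phase of DNA synthesis, earlier in the cell cycle than mitosis. Of 32 listed, 20 were tested and 0 passed in any comparison. Their median was 0.14 for UC against CC, 0.45 for UU against CC and -0.21 for UC against UU. In UU against CC 17 of 20 lay above 0 and 9 had an unadjusted p under 0.05, where 8.57% of all genes were higher at that level. Prim1, the DNA primase, was at 1613 ± 252 (SD, n = 4) in UU and 969 ± 345 (n = 5) in CC, a difference of 0.77 ± 0.23 (limma, adjusted p = 0.161). A dimmer Prim1 probe set gave 0.16. Mcm6, a subunit of the replicative helicase, differed by 0.56 ± 0.19 (adjusted p = 0.187), and its dimmer probe set gave 0.52. All 4 UU mice lay above the highest CC mouse for Mcm6, and 8.31% of all genes had groups that did not overlap. In UC against UU 19 of 20 lay below 0, and 16 of 20 with each array centred on its median (median -0.07 against 0.08 for all genes). Uhrf1, which keeps DNA methylation through replication, was at 631 ± 107 in UC and 1080 ± 246 in UU, a difference of -0.74 ± 0.25 (adjusted p = 0.153), and Mcm2, another helicase subunit, differed by -0.81 ± 0.31 (adjusted p = 0.199). Their dimmer probe sets gave -0.83 and -0.41. In UC against CC the genes of smallest p were Pola1, a DNA polymerase subunit (0.41 ± 0.17), and Rrm2, a subunit of ribonucleotide reductase (0.56 ± 0.28), whose dimmer probe sets gave 0.18 and 0.44.

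**Figure D5:**
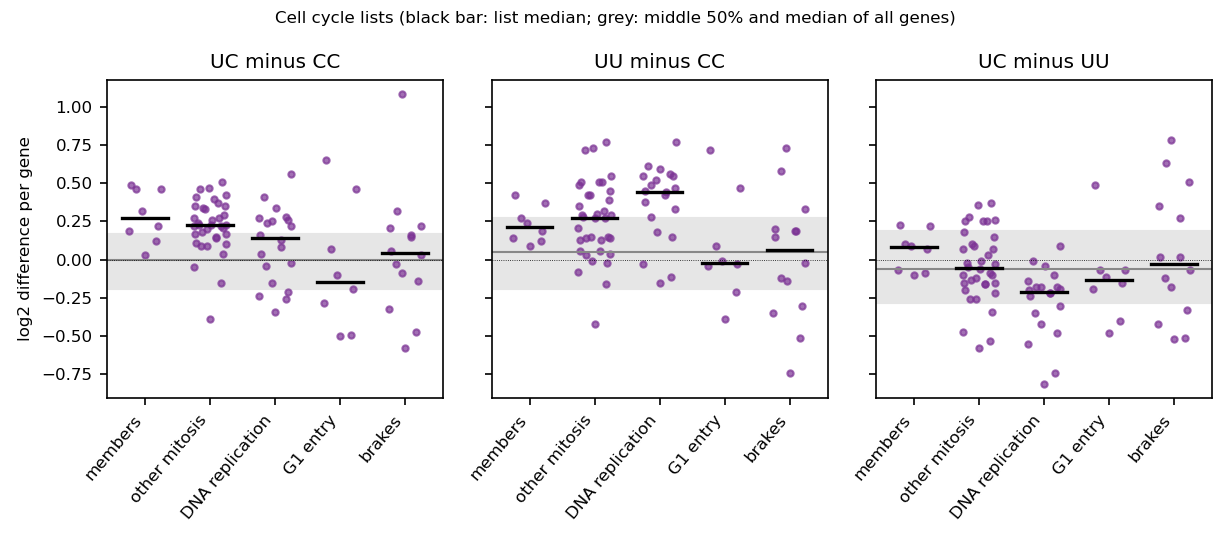
log2 differences of single tested genes in the members (8), the wider mitosis list (36), the DNA replication list (20), the list of G1 entry genes (8) and the list of cell cycle brakes (14), for each comparison. Black bars are list medians and the grey band and line are the middle 50% and the median of all 7436 genes; the replication list lies at 0.45 in UU minus CC and at -0.21 in UC minus UU, while the members lie at 0.21 and 0.08.

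Lists of entry into the cycle and of its brakes held 0 genes that passed. The 8 tested genes of entry had medians of -0.15 for UC against CC, -0.02 for UU against CC and -0.13 for UC against UU. Ccnd2, cyclin D2, was at 10223 ± 2784 (SD, n = 5) in UC, 7093 ± 382 (n = 4) in UU and 7442 ± 1961 (n = 5) in CC, and all 5 UC mice lay above the highest UU mouse (0.49 ± 0.21, limma adjusted p = 0.237). Its other probe sets gave 0.12 to 0.80 for UC against UU. Cdk4, the kinase partner of D cyclins, differed by -0.49 ± 0.22 in UC against CC (adjusted p = 0.562) and by -0.48 ± 0.24 in UC against UU (adjusted p = 0.299). Its dimmer probe sets gave -0.59 and -0.46 in UC relative to CC, and -0.28 and -0.04 in UC relative to UU. In UU against CC, Ccnd1, cyclin D1, differed by 0.47 ± 0.21 and Cdk2, a kinase of DNA synthesis entry, by 0.72 ± 0.45. The 14 tested brakes had medians of 0.05, 0.06 and -0.02. Cdkn1a, the inhibitor p21, had the smallest p of that list, at 5849 ± 1000 in UC, 4521 ± 375 in UU and 2867 ± 1107 in CC, a difference from CC of 1.08 ± 0.22 in UC (adjusted p = 0.381) and 0.73 ± 0.23 in UU (adjusted p = 0.168). Cdkn1b, the inhibitor p27, was at 3160 ± 419 in UC and 4686 ± 1558 in UU (-0.52 ± 0.19, adjusted p = 0.191) and at 3032 ± 415 in CC. Cdkn1c, the inhibitor p57, differed by -0.58 ± 0.28 in UC against CC. Ccng1, a target of p53, differed by 0.51 ± 0.17 in UC against UU, where the groups did not overlap. Of all genes, 6.15% had UC and UU groups that did not overlap, as Ccnd2 and Ccng1 did.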

How the data were processed

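The authors deposited linear intensity signals. The submitters' processing notes name GCOS 1.3 and MAS5 as their tools. With 2% trimmed from each end, array means were 1500.5 to 1500.6, so the arrays had been scaled to one level before deposit. Detection calls and scan dates were not used here. Each array held distinct values (log2 correlations within groups from 0.877 to 0.951).

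Symbols came from the platform annotation (1 symbol for 20380 of 22690 probe sets, several for 691, none for 1555, and 64 control probe sets), updated by Entrez identifier to a RefSeq gene table for 20351. The probe set of highest mean stood for a gene. Signals were transformed as log2(value + 32), so a fold change is on that scale and understates changes of dim genes. Genes among the dimmest 40% were dropped and 7436 remained. The 14 arrays were fitted together in one limma 3.58.1 model (R 4.3.3, eBayes with trend, 11 residual degrees of freedom), with two-sided tests of 3 contrasts and Benjamini-Hochberg adjustment over all tested genes. Calls needed an adjusted p under 0.05. A value given as ± with SE is the coefficient with its moderated standard error. Probe sets beside the brightest come from the same model over all 20380 probe sets with 1 symbol, without a filter. The model was checked on simulated arrays with 200 genes changed 2-fold or 4-fold among 7436. It found 72% of the 2-fold changes between UC and CC and 64% of those between UU and CC. For UC against UU it found 71%. In the real comparisons with CC 0 genes passed, which makes the adjustment stricter than in the simulation. These shares therefore do not give the chance of finding a 2-fold change in a member.

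The members and lists were chosen with earlier results of these data known. Named genes are all members, the 4 genes of smallest p of the wider mitosis list and the 2 of each other cell cycle list per comparison, and the 8 genes most like the members' mean. The replicate numbers in the labels were checked for pairing: same-numbered samples of different groups correlated at -0.35 to 0.50 in their deviations from group means, with 6 of 13 pairs over 0.1, so they were not treated as pairs. Alternatives covered the pseudocount, filter, scaling, probe set rule, variance model, array weights, samples fitted, replicate block, threshold and each array left out. Fits without samples that stood apart, or with their marker levels as covariates, were added after seeing the data. Figures were drawn with matplotlib 3.10.9.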

Additional observations from a re-analysis of the deposited data

Results flagged for a closer look

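Bub1, the spindle checkpoint kinase, had a signal of 103.4 in CC replicate 4, far below the other 4 CC mice at 394.7 to 457.9 (Dixon's test at 95%). Of 27 groups tested over the 9 genes, 1 was flagged in this way, and chance flags about 1 in 20. Bub1 lies below the signal filter, and the same mouse was the lowest of the 14 arrays for Ccnb2, Aurka and Mki67.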

How the results depend on the processing

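The count of mitosis genes called was 0 in each comparison in the main model and in all 33 alternatives, with adjusted p-values of the members no smaller than 0.177. None of 714 alternative values of single members moved by more than the spread within groups, and 39 changed sign. That spread was an SD of 0.25 (Top2a) to 0.57 (Birc5), larger than most of the fitted differences. The check could therefore hardly fail, and it does not show that the differences are stable. Leaving out 1 array at a time, the members' median was 0.13 to 0.37 for UC against CC, 0.07 to 0.42 for UU against CC and -0.13 to 0.18 for UC against UU. Without 1 array at a time, up to 2 members had an unadjusted p under 0.05. These were Ccna2 and Cdc20 in UC against CC without CC replicate 5, and Birc5 and Cdc20 in UU against CC without UU replicate 1.

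The number of genes called over the whole table was 0 in every setting for UC against CC. For UU against CC it was 0 in the main model and 0 to 2 with single arrays left out. It was 1 with no filter, with quantile normalization, without the samples low in Gpx5, without those with Xist signal and with the 3′ to 5′ ratio as covariate. It was 3 with the dimmest 60% left out, 6 with a replicate block, 6 at an adjusted p under 0.1, 7 with the epididymal level as covariate and 13 with array weights. For UC against UU it was 63, and 0 to 108 with single arrays left out (0 without UC replicates 2, 4 or 5 or UU replicate 1). It was 0 without the 3 samples of highest 3′ to 5′ ratio, 1 without the samples low in Gpx5, 3 without those with Xist signal, 7 with only the groups compared, 11 with no filter, 14 with the epididymal level as covariate, 16 over every probe set without a filter and 32 with probe sets averaged. It was 95 with a replicate block, 104 with median centring, 111 with the 3′ to 5′ ratio as covariate and 174 at an adjusted p under 0.1. The cause of these shifts was not tested, apart from the looser threshold. Under the replicate block, Ccna2 had a difference of 0.46 in UC against CC (adjusted p = 0.513) and 0.48 in UU against CC (adjusted p = 0.177), and 2 of 14 samples correlated best with their own number.

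With 4 or 5 mice a group, the standard errors of the tested members were 0.17 to 0.34 on the log2 scale. Changes well under 2-fold in a member could not be told from 0, and changes near 2-fold could fail the adjusted test. Cdkn1a was 2.12-fold higher in UC than in CC with a standard error of 0.22, and its limma adjusted p was 0.381. Bub1 and the dim probe sets of Top2a and Cdc20 lie below the signal filter, and their distance from background was not measured.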
